A study of Mus musculus with 8 samples.

Results

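Transcripts of the Runx and Ikaros family transcription factors were followed in mouse Th17 cells that carried either of 2 forms of ROR-γt. The families were taken as the 9 genes listed in the deposited table under the symbols Runx1, Runx2, Runx3, Cbfb, Ikzf1, Ikzf2, Ikzf3, Ikzf4 and Ikzf5, out of 22829 genes listed. The genes were picked by name, though with earlier results of these data known. All 9 were among the 16982 genes tested, those whose normalized counts averaged 10 or more over the 8 samples. A normalized count is the number of RNA seq reads on a gene divided by 1 size factor for the sample, so that samples of different depth can be compared.

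All samples started from CD4+ T cells of ROR-γt-/- mice, which lack the nuclear receptor that drives the Th17 program. The cells were isolated from spleen with magnetic beads, reconstituted by lentivirus with WT-ROR-γt (4 samples, called WT) or with K187R-ROR-γt (4 samples, called K187R), and differentiated under Th17-inducing conditions. In K187R-ROR-γt the lysine that accepts the small protein modifier SUMO is replaced by arginine. The deletion of the endogenous receptor, the lentiviral vector and the culture conditions are thus shared by both groups, and cells with neither form of ROR-γt were not analysed here. Both groups are forced-expression models, in which the receptor does not come from its own promoter. Samples are numbered 1 to 4 in each group. The labels do not give the age of the mice, nor whether samples of the same number came from the same animal, so the p-values measure the spread between these samples, which may be partly technical.

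Runx proteins bind DNA as dimers with CBFβ, the product of Cbfb, which makes no DNA contact of its own but stabilizes binding. In T cells destined for the CD8 lineage they silence Cd4, and Runx1 can bind both ROR-γt and Foxp3, the factor that defines regulatory T cells. Ikaros family proteins are zinc finger factors that bind DNA through fingers near the amino terminus and pair with one another through fingers near the carboxy terminus. Ikzf1 encodes Ikaros, Ikzf2 Helios, Ikzf3 Aiolos, Ikzf4 Eos and Ikzf5 Pegasus. Ikaros and Aiolos bring the NuRD chromatin remodelling complex to their targets, Helios and Eos are best known from regulatory T cells, and Aiolos is known for silencing Il2 in Th17 cells. The comparison asked whether loss of the SUMO acceptor site of ROR-γt went with a change in the transcripts of these factors, some of which work beside ROR-γt at the same genes.

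The 3 Runx genes share a sequence beside a transcript start, shown because it is the motif that Runx proteins themselves bind. RefSeq promoter windows on GRCm38, 250 bases before to 50 bases after a transcript start, were found for 6 of the 9 genes (9 windows), and none was found for Ikzf2, Ikzf3 or Ikzf4. The capitals mark 2 copies of the Runx motif AACCACA, and each stretch is written 5′ to 3′ on the strand of its gene.
Runx1, chr16:92826026-92826055, minus strand: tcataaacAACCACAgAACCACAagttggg
Runx2, chr17:44814584-44814613, minus strand: tcacaaacAACCACAgAACCACAagtgcgg
Runx3, chr4:135120502-135120531, plus strand: ggtccctcAACCACAgAACCACAaggccag
The copies begin 27 and 35 bases after the start site in Runx1, 22 and 30 bases after it in Runx2, and 135 and 127 bases before it in Runx3.

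The stretch common to the 3 genes is 18 bases long, and 4 of the 32851 promoter windows searched held it. The other window belongs to Gm16225, an RNA gene that starts beside Runx3 on the opposite strand and covers the same stretch. AACCACA, searched on both strands, was in 5.27% of all windows and in 3 of the 9 windows of these families. A pair of copies on the same strand with starts at most 15 bases apart was in 11 windows, 0.0335% of all, of which 3 were those of Runx1, Runx2 and Runx3. Of 2 further motifs, TGGGAA, a core bound by Ikaros proteins, was in 25.6% of all windows and in that of Runx3, and AGGTCA, the half-site bound by ROR proteins, was in 16.3% of all windows and in that of Runx2. Neither motif was in the stretches shown. A match describes the letters in a window and is no evidence that a factor binds there.

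Depth was high for all 9 genes. Between 52456804 and 74676721 reads fell on genes in each WT sample and between 54260345 and 67827288 in each K187R sample, and 3 reads correspond to 2.54 to 3.56 normalized counts. The fewest reads on any of the 9 genes in a sample were 1800, on Ikzf2, for which the counting error alone is 2.36%. CD4 T cell markers were high in every sample, led by Lck at 33164 to 44266 normalized counts, and their sum ran from 137066 to 150956 in WT and from 140735 to 159356 in K187R. Lyz2, a myeloid marker, was high as well, at 17025 to 57778, and was above Lck in WT 2, WT 4 and K187R 4. The levels given here are thus those of whole cultures.

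The 8 samples did not differ mainly by the form of ROR-γt. Clustering on 16973 tested genes, with the 9 family genes left out, gave 3 sets of samples. The first set held WT 1, WT 3 and K187R 1, the second held WT 2, K187R 2 and K187R 3, and the third held WT 4 and K187R 4. Xist, the RNA that coats the silenced X chromosome of female cells, was at 13564 to 17373 normalized counts in the second set and at 3.56 to 23.7 in the other 5 samples. High Xist was thus uneven between the groups, in WT 2 but in both K187R 2 and K187R 3. Since Xist was at 10.1 in WT 3 and 13564 in K187R 3, these samples are unlikely to share an animal. These sets were drawn from the data and are not groups of the study.

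The expression of the 9 genes covered a broad range once gene length was taken into account. Length was that of all annotated exons of a gene merged, from 3480 bases for Cbfb to 12025 for Runx1. Which transcripts the cells used was not tested, so levels, shares and ratios between genes are approximate. For Ikzf5, 84.5% of the exonic bases lie opposite exons of other genes. The strand setting of the counting is not stated, so the level and share of Ikzf5 are less certain. On the scale of normalized counts per kilobase of exon, the mean level over the 8 samples was highest for Ikzf1, at 5453, followed by Cbfb at 4675. Then came Ikzf3 at 2259, Ikzf4 at 1360, Runx1 at 999, Runx3 at 518, Ikzf5 at 477, Runx2 at 287 and Ikzf2 at 244. Ikzf1 was thus above 97.5% of the genes tested and Ikzf2 near the middle, above 49.4%. Several neighbours in this order were not apart beyond the spread of the samples. Ikzf1 exceeded Cbfb in 6 of 8 samples, Runx3 exceeded Ikzf5 in 4 of 8, and Runx2 exceeded Ikzf2 in 5 of 8. Ikzf4 exceeded Runx1 in 8 of 8 samples although their ranges met. The other neighbours had ranges that did not overlap.

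Runx1 was the largest part of the Runx transcripts in every sample, with a share from 48.9% in K187R 3 to 62.7% in K187R 1. Per kilobase it made up 54.3% ± 3.64 of the Runx sum in WT and 56.6% ± 6.47 in K187R (SD, n = 4 each). Runx3 made up 29.2% ± 4.35 and 27.9% ± 7.28, and Runx2 16.5% ± 1.27 and 15.4% ± 1.16. The ratio of Runx1 to Runx3 was 1.91 ± 0.434 in WT and 2.18 ± 0.752 in K187R and ran from 1.32 in K187R 3 to 2.84 in K187R 1. Cbfb exceeded the sum of its 3 partners in every sample, by a ratio of 2.67 ± 0.539 in WT and 2.52 ± 0.369 in K187R.

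Ikaros itself made up the larger part of the Ikaros family. Ikzf1 held 54.4% ± 2.51 of the family sum per kilobase in WT and 56.8% ± 1.83 in K187R. Ikzf3 held 23.5% ± 1.81 and 22.8% ± 1.27, and Ikzf4 14.7% ± 3.27 and 13.1% ± 1.81. Ikzf5 held 5.14% ± 1.07 and 4.58% ± 0.448, and Ikzf2 2.28% ± 1.23 and 2.67% ± 0.973. For each gene of both families the means of the share in WT and K187R lay closer together than the larger of the SDs, by a narrow margin for Ikzf1. Both known regulatory T cell members of the family were therefore transcribed in these Th17 cultures, Eos well above Helios: the ratio of Ikzf4 to Ikzf2 per kilobase ran from 2.46 in WT 2 to 11.6 in WT 4.

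**Figure D1:**
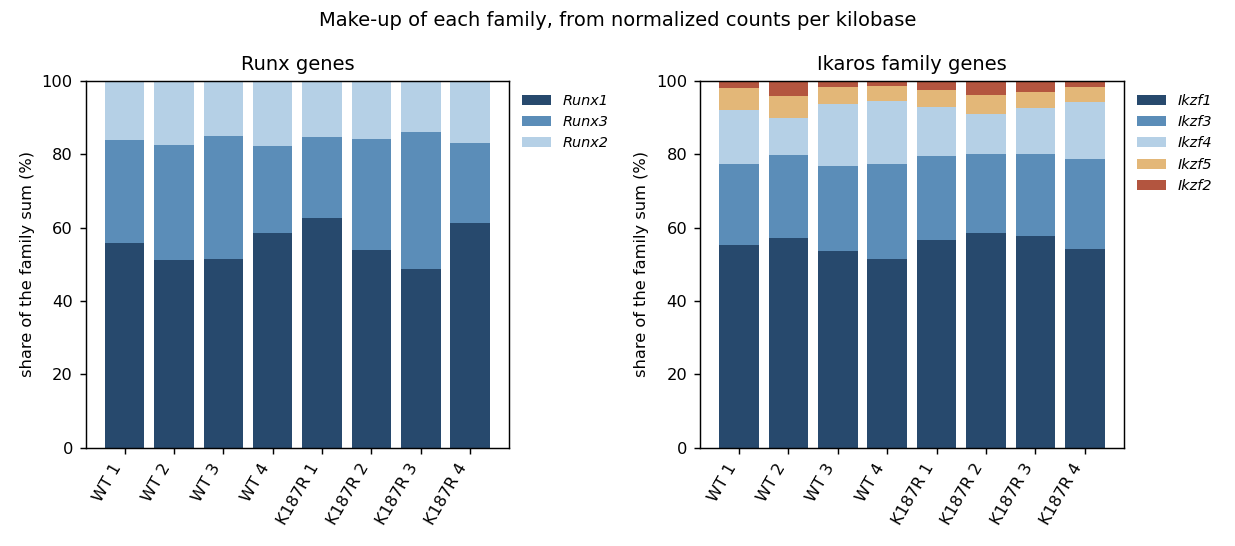
Share of each gene in its family's sum of normalized counts per kilobase of exon (vertical axis, %), for the Runx genes on the left and the Ikaros family on the right, with 1 bar for each of the 8 samples. Runx1 and Ikzf1 are the largest parts of every bar, and the Ikzf2 part is thickest in WT 2, at 4.10%, and thinnest in WT 4, at 1.48%.

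No Runx or Ikaros family transcript differed detectably between K187R and WT. With limma on log2(normalized count + 1), 0 of the 9 genes passed an adjusted p of 0.05, as did 0 of the 16982 genes tested (0%). At an unadjusted p under 0.05, 746 genes passed (4.39%), 467 higher in K187R (2.75%) and 279 lower (1.64%), and 0 of the 9 were among them. The 4 WT and 4 K187R values overlapped for each of the 9 genes, whereas for 417 genes (2.46%) they did not. With DESeq2 on the recovered reads, 27 of 13970 genes passed (0.193%), again with 0 of the 9. With edgeR's quasi-likelihood test 0 genes passed an adjusted p of 0.05 and 729 an unadjusted p of 0.05. The fitted difference was above 0 for 4 of the 9 genes and below 0 for 5, with a median of -0.03 on the log2 scale beside -0.01 over all genes tested.

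Runx1, the Runx factor known to work with ROR-γt, was at 12516, 10525, 11711 and 11678 normalized counts in WT 1 to 4 and at 14070, 12007, 11436 and 12124 in K187R 1 to 4. The highest value was in K187R 1 and the lowest in WT 2, with the remaining samples mixed between the groups. The log2 difference of K187R from WT was 0.09 ± 0.0846 (SE), with a 95% interval from -0.10 to 0.28 (limma, adjusted p = 0.922). That interval leaves room for a change between 0.936-fold and 1.22-fold.

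Runx2, best known as the factor of bone formation, was at 2631, 2629, 2508 and 2603 normalized counts in WT and at 2506, 2591, 2409 and 2442 in K187R. The 3 highest of the 8 values were WT and the 3 lowest K187R, but the groups met in the middle, where K187R 2 was above WT 3. Its log2 difference was -0.06 ± 0.0633, with an interval from -0.20 to 0.08 (limma, adjusted p = 0.924), and an exact two-sided permutation test of this single gene gave p = 0.0571. Of the exonic bases of Runx2, 5.87% lie opposite exons of the antisense gene Runx2os1, which was at 41.8 to 135.9 normalized counts. Whether the counting used the strand of reads is not stated.

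Runx3, the cytotoxic lineage factor that also acts in inflammatory helper cells, was at 2614, 2705, 3161 and 1950 normalized counts in WT and at 2063, 2818, 3613 and 1818 in K187R. The highest and the lowest value both came from K187R samples. The log2 difference was -0.05 ± 0.221 (limma, adjusted p = 0.982), and the interval, from -0.54 to 0.45, was correspondingly wide. In the first set of samples K187R was lower by 0.48 on the log2 scale and in the second higher by 0.24, each with K187R and WT values apart.

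Cbfb was at 19524, 19247, 15261 and 12131 normalized counts in WT and at 17798, 18442, 13736 and 14021 in K187R. Its highest and lowest values were both WT. The log2 difference was -0.03 ± 0.166, with an interval from -0.41 to 0.34 (limma, adjusted p = 0.984).

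Ikzf1 was at 31623, 31677, 29815 and 27120 normalized counts in WT and at 34719, 34904, 32439 and 29698 in K187R. K187R was above WT at each of the 4 replicate numbers, and 3 of the 4 K187R values were above every WT value. The log2 difference was 0.13 ± 0.0818, with an interval from -0.05 to 0.32 (limma, adjusted p = 0.921; exact two-sided permutation p = 0.143). The interval reaches no further than a 1.24-fold rise.

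Ikzf2 was at 2220, 4553, 1807 and 1569 normalized counts in WT and at 2869, 4524, 3443 and 1655 in K187R. WT 2 and K187R 2 were the highest samples and WT 4 and K187R 4 the lowest, so the spread within each group exceeded the difference between them. The log2 difference of 0.34 ± 0.371 was the largest of the 9 and had the widest interval, from -0.49 to 1.18 (limma, adjusted p = 0.924). The upper end of that interval is a 2.26-fold rise.

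Ikzf3 was at 19203, 18759, 19625 and 20856 normalized counts in WT and at 21063, 19353, 19089 and 20287 in K187R. All 8 values lay close together. The log2 difference was 0.02 ± 0.0650, with an interval from -0.12 to 0.17 (limma, adjusted p = 0.966).

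Ikzf4 was at 8806, 5777, 9737 and 9398 normalized counts in WT and at 8587, 6792, 7429 and 8710 in K187R. The 3 lowest values were those of WT 2, K187R 2 and K187R 3. The log2 difference was -0.08 ± 0.164, with an interval from -0.44 to 0.29 (limma, adjusted p = 0.960).

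Ikzf5, the most divergent family member, was at 3389, 3325, 2554 and 2025 normalized counts in WT and at 2805, 3060, 2327 and 2339 in K187R. The log2 difference was -0.08 ± 0.171, with an interval from -0.46 to 0.31 (limma, adjusted p = 0.959). On GRCm38 with GENCODE M21, 84.5% of the exonic bases of Ikzf5 lie opposite exons of Pstk or Gm44624, so its value depends on how the authors assigned such reads. Pstk, which encodes a kinase of selenocysteine tRNA, was at 909 to 1103 normalized counts, and Gm44624 at 1.05 to 9.51.

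**Figure D2:**
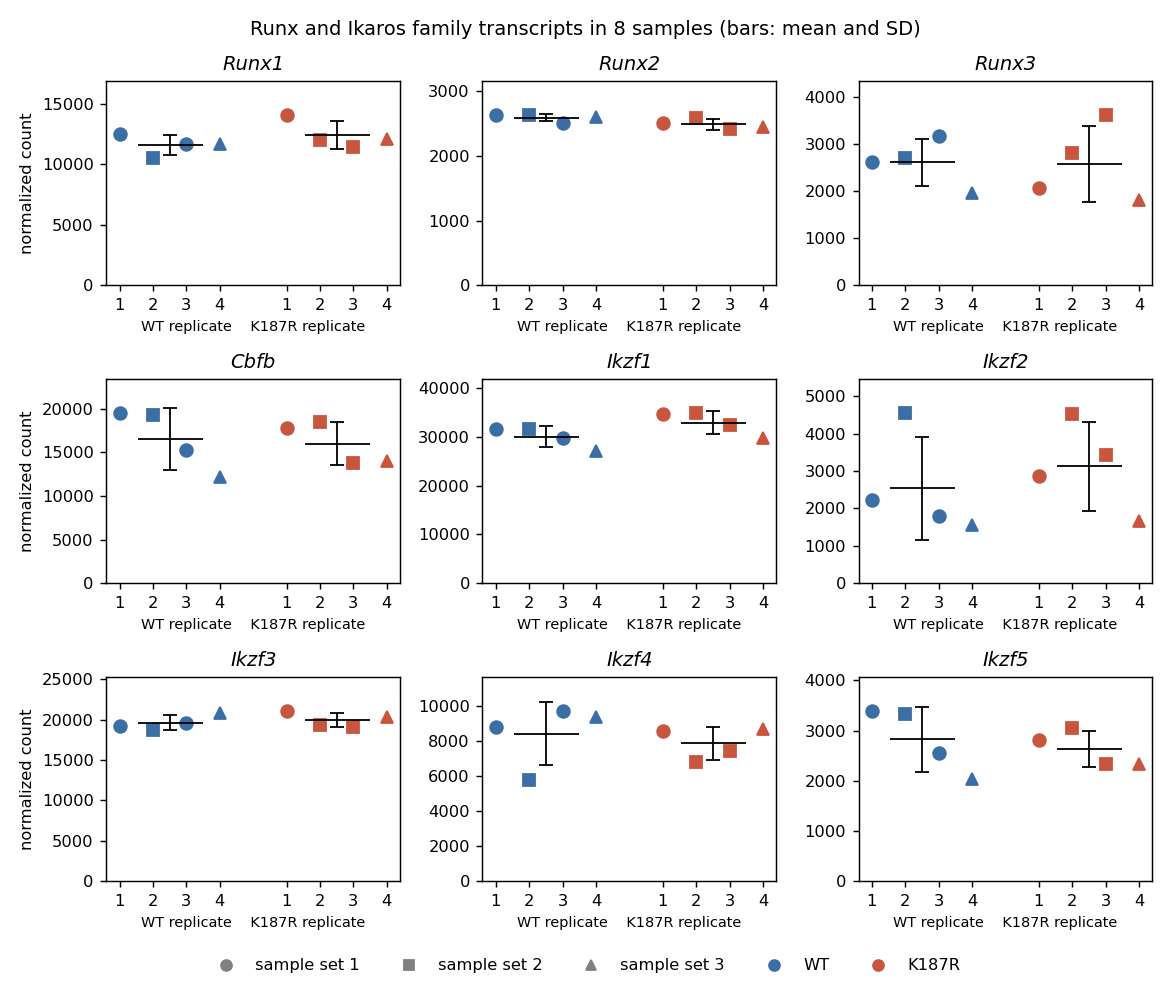
Normalized count (vertical axis, from 0) of the 9 genes in each WT sample (blue) and K187R sample (red), with marker shapes for the 3 sets of samples and bars for the mean and SD of 4 samples. The groups overlap in all 9 panels, and the spread is narrow for Runx2 and Ikzf3 and broad for Ikzf2, whose 3 highest values are the squares of the second set.

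With the set of samples as a term in the limma fit, the differences were 0.15 for Runx1 and 0.13 for both Ikzf1 and Ikzf2 on the log2 scale. Runx1 then had an unadjusted p of 0.0479, as 1394 genes had one under 0.05 (8.21%), and its adjusted p was 0.598. Over 21 alternatives its adjusted p ran from 0.505 to 0.9999. Runx1 and Ikzf1 were higher in K187R within each of the 3 sets and Runx2 lower within each, without overlap. For Runx1 these differences were 0.22, 0.15 and 0.05, for Ikzf1 0.18, 0.09 and 0.13, and for Runx2 -0.04, -0.07 and -0.09. Such a pattern held for 2356 genes (13.9%). A set holds no more than 3 samples, so it was met by 3 of the 9 genes with very few values behind each.

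**Figure D3:**
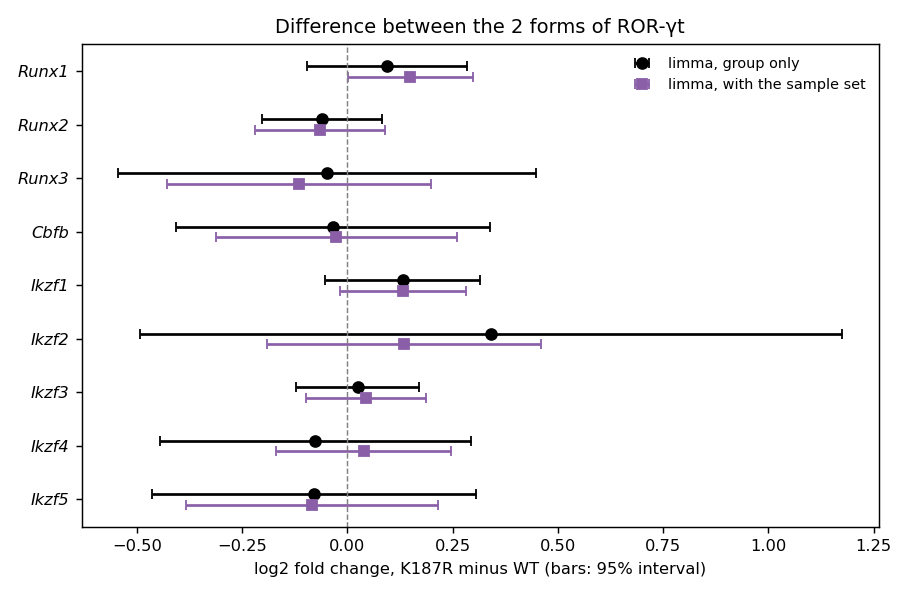
Difference of K187R from WT on the log2 scale (horizontal axis) for each of the 9 genes, as the point estimate and 95% interval of limma without (black circles) and with (purple squares) the set of samples as a term. All black intervals include 0, the interval of Ikzf2 narrows from between -0.49 and 1.18 to between -0.19 and 0.46, and that of Runx1 runs from 0.002 to 0.30 once the set is a term.

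The 9 genes varied to very different degrees over the samples. Runx2 had a highest sample only 1.09-fold above the lowest, less than in all but 72 of the 16982 genes tested, and all but 70 of the 8044 genes averaging 1000 normalized counts or more. The counting error of Runx2 in the sample with the fewest reads was 2.13%. Ikzf3 had a range of 1.12-fold, which 294 genes undercut. The median of all genes tested was a range of 1.55-fold, above Ikzf1 at 1.29-fold and Runx1 at 1.34-fold. Among the 8044 genes averaging 1000 or more, however, Ikzf1 had a wider range than 37.9% and Runx1 than 49.8%. Cbfb at 1.61-fold, Ikzf5 at 1.67-fold, Ikzf4 at 1.69-fold, Runx3 at 1.99-fold and Ikzf2 at 2.90-fold varied more. Their ranges were wider than those of 84.6%, 87.5%, 88.0%, 94.6% and 98.6% of these 8044 genes, in that order.

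**Figure D4:**
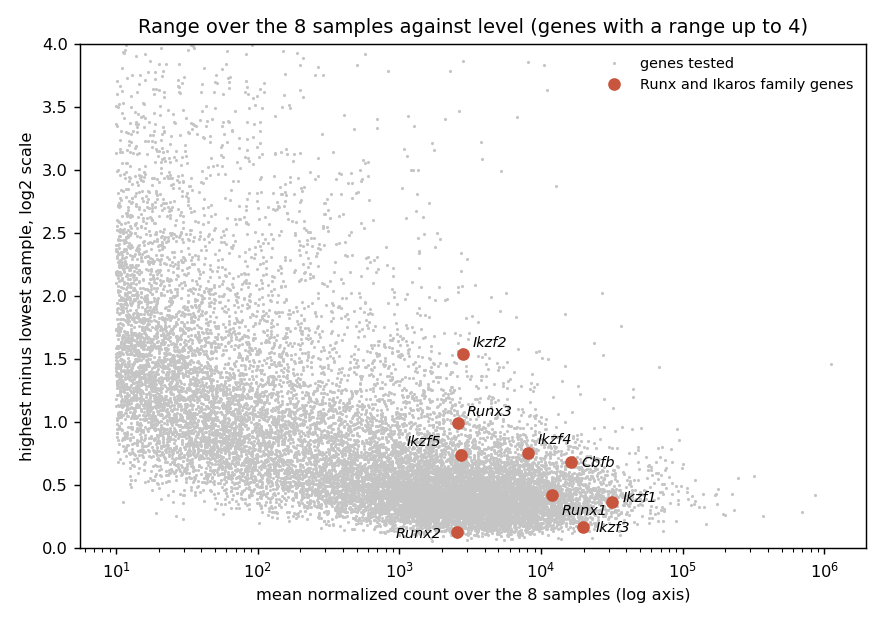
Difference between the highest and the lowest of the 8 samples on the log2 scale (vertical axis) against the mean normalized count (horizontal log axis), with grey points for the genes tested whose range is up to 4 and red points for the 9 family genes. Runx2, at 0.13, and Ikzf3, at 0.17, lie on the lower edge of the cloud, and Ikzf2, at 1.54, on its upper side.

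Ikzf2 and Ikzf4 separated the second set of samples from the rest, in opposite directions. Ikzf2 was at 3443 to 4553 normalized counts in the 3 samples of the second set and at no more than 2869 in the other 5, and Ikzf4 was at 5777 to 7429 there and at no less than 8587 elsewhere. Over all genes tested, 2396 separated the second set in this way (14.1%), beside 2 of the 9 genes here. The 2 genes whose levels, centred on their means, lay nearest to Ikzf2 were Slc7a11, which encodes the cystine transporter, and Itgb8, which encodes an integrin subunit that activates TGF-β. Their root mean square differences from Ikzf2 over the 8 samples were 0.130 and 0.148 on the log2 scale. The genes nearest to Ikzf4 were Sdc3, a syndecan, at 0.0377, and Pla2g4f, a phospholipase, at 0.0689. Sdc3 was at 2985 to 3640 normalized counts in the second set and at 4203 to 4794 elsewhere.

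Some regulatory T cell genes also separated the second set. Foxp3, named here after its values were seen, was at 6121 to 7574 normalized counts in the second set and at 11144 to 17297 in the other 5 samples. Il2ra was at 68677 to 72628 there and at 80266 to 132086 elsewhere. The sum of the 6 markers of regulatory T cells, most of which is Il2ra, was 95811 to 101064 in the second set and 112298 to 175311 elsewhere. The other markers, Ctla4, Tnfrsf18, Lrrc32 and Nrp1, overlapped between the second set and the rest, and Nrp1 was on the higher side there, at 3809 to 4672 against 2765 to 4132. Against the other 5 samples, the second set thus had more Ikzf2, less Ikzf4 and less Foxp3 transcript. Between the other sets Ikzf2 and Foxp3 did not run opposite, since both were lower in the third set than in the first. The 4 markers of CD8 T cells split. Cd8a and Cd8b1, which encode the CD8 coreceptor, were lowest in the second set, at 121 to 133 against 164 to 635 and at 254 to 282 against 313 to 506. Eomes and Gzmk were highest there, at 341 to 404 against 35.0 to 61.9 and at 519 to 610 against 27.3 to 46.2. The sum of the 4, at 1259 to 1372 against 555 to 1245, was carried by Eomes and Gzmk, which like Cd8a were named after their values were seen. The B cell, myeloid and NK cell sums overlapped between the second set and the rest, at 1281 to 1387 against 324 to 1697, 42872 to 49071 against 20339 to 64260 and 49.5 to 67.2 against 21.5 to 53.5. In RNA from whole cultures, fewer cells of a type and less RNA per cell cannot be told apart, and the part of other cells in the levels of Ikzf2 and Ikzf4 was not tested.

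The third set, WT 4 and K187R 4, had the lowest values of Ikzf1, Ikzf2 and Runx3. Ikzf1 was at 27120 and 29698 normalized counts there, just under the 29815 of WT 3, and Runx3 was at 1950 and 1818 against at least 2063 elsewhere. The same separation, in either direction, was seen in 4037 genes (23.8%). The genes nearest to Runx3 were Izumo1r, which encodes folate receptor 4, at 0.0933, and Arhgef10 at 0.115. In WT 4 and K187R 4 the 6 B cell markers summed to 324 to 402 normalized counts, against 1060 to 1697 in the other 6 samples. Cd8a was at 567 and 635 there against at most 204 elsewhere, and Cd8b1 at 457 and 506 against at most 365. The other CD8 T cell markers were not apart, with Eomes at 58.7 to 61.9 against 35.0 to 404 and Gzmk at 45.3 to 46.2 against 27.3 to 610. The sum of the 4 CD8 T cell markers overlapped, at 1133 to 1245 against 555 to 1372. The 6 myeloid markers, led by Lyz2, summed there to 61225 to 64260 against 20339 to 49071, and the 3 NK cell markers found to 21.8 to 22.2 against 21.5 to 67.2. No marker found in the table was at 0 in every sample, and the part of these cells in the levels of Ikzf1, Ikzf2 and Runx3 was not tested.

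Cbfb and Ikzf5 ran in parallel over the 8 samples. Their centred log2 levels differed by a root mean square of 0.0401, the smallest of the 36 pairs among the 9 genes, and 10 of the other 16981 genes tested lay nearer to Cbfb than Ikzf5 did. Both were high in the samples numbered 1 and 2 of either group and low in those numbered 3 and 4. Cbfb was at 17798 to 19524 normalized counts in the former and 12131 to 15261 in the latter, and Ikzf5 at 2805 to 3389 and 2025 to 2554. This split was noticed in the values and was not a planned comparison. It separated 2922 of all genes tested (17.2%), beside 2 of the 9 genes here, and the labels do not say what the numbers stand for. The split crosses the sets of samples, since K187R 3 had the low values of both genes while the other samples of the second set had high ones. The sum of the 7 CD4 T cell markers was also apart, in the opposite direction, at 137066 to 148711 in the former and 149279 to 159356 in the latter, and its part in the result was not tested. Pstk, which overlaps Ikzf5, was at 958 to 1057 in the former and 909 to 1103 in the latter. The strand setting is not stated, and the part of overlapping reads in the Ikzf5 level was not tested.

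**Figure D5:**
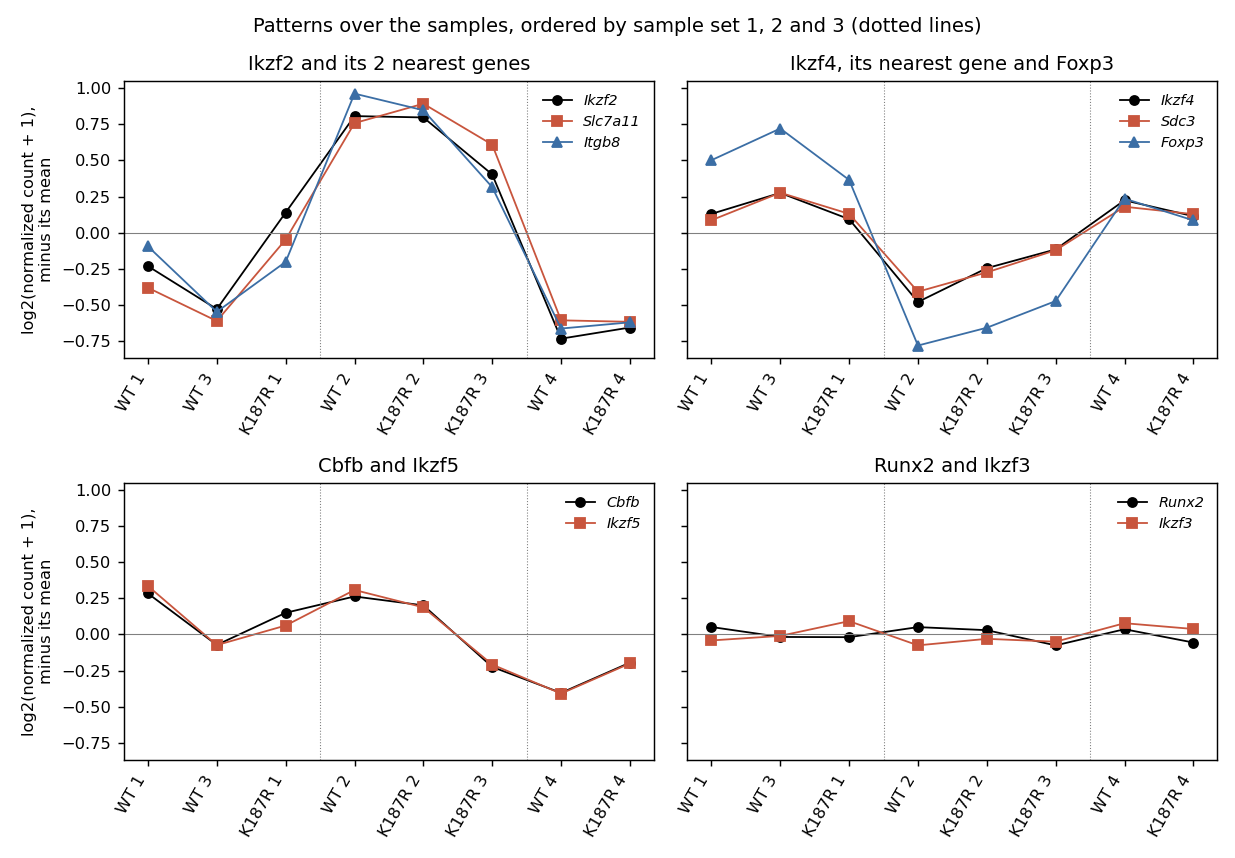
Level of selected genes in the 8 samples as log2(normalized count + 1) minus the gene's mean (vertical axis), with samples ordered by set and dotted lines between the sets. Ikzf2 with Slc7a11 and Itgb8 is high in the second set, Ikzf4 with Sdc3 and Foxp3 is low there, Cbfb and Ikzf5 run together, and Runx2 and Ikzf3 are nearly flat.

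Genes that act with these factors were read through lists. In every list 0 genes passed an adjusted p of 0.05. Over all genes tested, 4.39% passed an unadjusted p of 0.05 in limma, and the median log2 difference was -0.01. The share of all genes above or below 0 was not counted, so the directions within a list have no such share beside them. Of 11 Runx cofactors, 1 passed an unadjusted p of 0.05, and the median log2 difference was 0.004. That gene was Tle3, a Groucho-type corepressor, at 8920 to 11925 normalized counts in WT and 11450 to 15027 in K187R. Its log2 difference was 0.34 ± 0.111 (limma, adjusted p = 0.921). Cbfa2t3, an ETO-family corepressor, differed by 1.07 ± 0.497 with values of 102 to 363 in WT and 167 to 664 in K187R.

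Of 15 genes described as Runx targets in T cells, 11 were higher and 4 lower in K187R, with a median log2 difference of 0.09. Of the 15, 2 passed an unadjusted p of 0.05, beside 4.39% of all genes tested. Il17a, which encodes the signature Th17 cytokine, was at 2861, 4653, 2676 and 2087 normalized counts in WT and at 4696, 6075, 5771 and 3528 in K187R. It was higher in K187R at each replicate number, although K187R 4 lay under WT 2, and the log2 difference was 0.74 ± 0.246 (limma, adjusted p = 0.921; exact two-sided permutation p = 0.0571). Itgae, which encodes the integrin chain CD103, was at 3395 to 5519 in WT and 4829 to 6931 in K187R, with a log2 difference of 0.54 ± 0.173 (limma, adjusted p = 0.921). Neither passed after adjustment.

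For the Ikaros side, the 9 tested of 10 Ikaros family targets had a median log2 difference of 0.05, with 6 higher, 3 lower and 0 past an unadjusted p of 0.05. The targets of smallest p were Dtx1, a Notch pathway gene, at 374 to 481 normalized counts in WT and 361 to 715 in K187R, and Hes1, another Notch target, at 8.32 to 47.1 and 14.7 to 59.6. The 13 subunits of NuRD had a median of -0.05, with 0 past an unadjusted p of 0.05. Chd3, a remodelling ATPase of the complex, was at 34693 to 37896 in WT and 34523 to 45790 in K187R, and Rbbp4, a histone chaperone subunit, at 15286 to 20968 and 15914 to 17943. The 5 genes of the CRL4-CRBN ubiquitin ligase, through which lenalidomide-type drugs degrade Ikaros and Aiolos, were all on the lower side in K187R, with a median of -0.11 and 0 past an unadjusted p of 0.05. Crbn, the drug-binding subunit, was at 4980 to 7755 in WT and 5099 to 6203 in K187R, and Rbx1, the ring finger subunit, at 3817 to 4247 and 3342 to 4114.

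Of 8 Th17 factors, 5 were higher and 3 lower in K187R, with a median of 0.02 and 0 past an unadjusted p of 0.05. Stat3, the signal transducer of IL-6, was at 31166 to 40417 normalized counts in WT and 30147 to 35731 in K187R, and Batf, an AP-1 factor of early Th17 differentiation, at 1745 to 2236 and 2138 to 2839. The summed markers of other cells overlapped between the forms of ROR-γt, although the single markers of some lists leaned to K187R. The myeloid sum was 20339 to 61225 in WT and 35207 to 64260 in K187R, led by Lyz2. The B cell sum, led by Cd79a, was 324 to 1281 and 402 to 1697. The CD8 T cell sum, led by Cd8b1, was 629 to 1372 and 555 to 1327. The NK cell sum, led by Klre1 and without Klra8, which was not in the table, was 21.8 to 63.5 and 21.5 to 67.2. All 5 myeloid markers tested and all 6 B cell markers were on the higher side in K187R, with median log2 differences of 0.46 and 0.38. Of the CD8 T cell markers 2 were higher and 2 lower, and of the NK cell markers tested 1 and 1. In these lists 0 genes passed an unadjusted p of 0.05 in limma, and the part of these cells in the differences was not tested. The 6 markers of regulatory T cells summed to 101064 to 175311 in WT and 95811 to 134742 in K187R, with 1 higher and 5 lower in K187R and a median log2 difference of -0.27. Of these, 1 was past an unadjusted p of 0.05 in each direction, both named after their values were seen. Over all genes tested, 2.75% passed it higher in K187R and 1.64% lower. Ctla4, an inhibitory receptor, was lower in K187R without overlap, at 13494 to 18551 in WT and 10094 to 11599 in K187R (log2 difference -0.51; limma, adjusted p = 0.921), and Nrp1 was at 2765 to 3809 and 3296 to 4672.

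The genes lie apart in the genome, on GRCm38 with GENCODE M21. Runx1 spans chr16:92601466-92826149, Runx2 chr17:44495987-44814797, Ikzf2 chr1:69531214-69687245, Ikzf4 chr10:128630843-128645991 and Ikzf5 chr7:131388652-131410521, all on the minus strand. Runx3 spans chr4:135120652-135177990 and Cbfb chr8:105170674-105217989, on the plus strand. Ikzf1, at chr11:11685003-11772926 on the plus strand, and Ikzf3, at chr11:98464902-98546031 on the minus strand, share a chromosome. Cbfb and Ikzf5, whose levels ran in parallel, are on different chromosomes.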

How the data were processed

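CD4+ T cells of ROR-γt-/- mice with the WT or the K187R form of ROR-γt were profiled by RNA seq, 4 samples each. The authors' methods name Cutadapt, HiSat2 on GRCm38, featureCounts with GENCODE M15 and DESeq2, while the methods and the labels name different library kits. Strand and multi-mapping settings are not given in the sources used here. Each deposited value is a signal made by the authors from the reads on a gene, scaled by 1 size factor per sample. Whole reads were recovered for 100% of the values (largest deviation 0.000296 of a read).

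The main test was limma with a trend on log2(normalized count + 1), for genes with a mean of at least 10, by group alone, with Benjamini-Hochberg adjustment at 0.05. edgeR's quasi-likelihood test and DESeq2 on the recovered reads were alternatives, as were pseudocounts, filters, median centring, array weights, the replicate block, the sample set and leaving out each sample. Median centring shifted K187R against WT by 0.02 on the log2 scale. Single genes were also tested by exact permutation. The methods were also run on simulated counts that held no sets of samples, so that run cannot show how they perform with the sets seen here. Genes named are the 9 family genes, the 2 of smallest p in each list and all past the threshold, the highest marker of each cell type, and the 2 genes nearest to each of the 3 most variable family genes. The family genes, lists and tests were chosen with earlier results of these data known. Gene positions and exon lengths are from GENCODE M21, which held 22784 of the listed identifiers and not the other 45, and promoter windows from RefSeq. Intervals of counting error cover counting only. Tests were run with edgeR 4.0.16, limma 3.58.1 and DESeq2 1.42.0 under R 4.3.3. Permutations used scipy 1.17.1, tables pandas 2.3.3 with numpy 2.4.6, and figures matplotlib 3.10.9, all under Python 3.11.15. The level of 1 further gene the rule named is not reported here.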

Additional observations from a re-analysis of the deposited data

How the results depend on the processing

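None of the 9 family genes passed an adjusted p of 0.05 under any of the 21 alternatives. The lowest adjusted p was 0.240, for Ikzf1 in DESeq2 with the replicate block. Leaving out 1 sample at a time gave log2 differences of 0.03 to 0.13 for Runx1, -0.08 to -0.05 for Runx2, 0.08 to 0.18 for Ikzf1 and 0.13 to 0.67 for Ikzf2, which kept their direction. The direction turned for Cbfb (-0.17 to 0.054; without WT 1, WT 2, K187R 3 or K187R 4), Ikzf5 (-0.23 to 0.018; without WT 1 or WT 2), Runx3 (-0.23 to 0.10; without WT 3, K187R 1 or K187R 4), Ikzf4 (-0.25 to 0.0034; without WT 3) and Ikzf3 (-0.0019 to 0.055; without K187R 1). With the sample set as a term Ikzf4 turned to 0.039. The cause of these turns was not tested. Over all genes, the 0 calls became 3 with array weights, 1 with the sample set, 27 with DESeq2 (15 higher, 12 lower) and 0 to 4 with 1 sample left out (4 without WT 4).

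Both groups are numbered 1 to 4. The deviations of same-numbered samples from their group means correlated at 0.592, 0.663, -0.0922 and 0.630 for numbers 1 to 4, and WT 3 correlated best with K187R 1, so the numbers were not taken to pair the samples. At number 3 Xist differed too, at 10.1 normalized counts in WT 3 and 13564 in K187R 3, so a block by number joins unlike samples there. The replicate block left 0 calls over all genes in limma (2046 of 16982 at an unadjusted p under 0.05) and 0 in edgeR (1930 of 16982). In DESeq2 it gave 175 (118 higher, 57 lower), with 1725 of 13534 genes at an unadjusted p under 0.05. With the block, 0 of the 9 genes passed an adjusted p of 0.05, and an unadjusted p under 0.05 was reached by 1 of them in limma and in edgeR (Ikzf1) and by 2 in DESeq2 (Ikzf1 and Ikzf2), against 0 without it. Without the block, 1 of the 9 also reached it in limma with the sample set as a term (Runx1), beside 1394 of all genes tested (8.21%). When WT 2 was left out, 1 of the 9 reached it (Ikzf4), beside 1453 of 16982 genes.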
